A study of Homo sapiens with 44 samples.

Results

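The BMP response genes described here are a set of 9 human genes. They comprise the inhibitors of DNA binding ID1, ID2, ID3 and ID4, the intracellular and membrane brakes SMAD6, SMAD7 and BAMBI, and the homeobox genes MSX1 and MSX2. They were picked by symbol as known transcriptional readouts of BMP signalling, not by their measured values, but with earlier results of these data known. BMP activity itself was not measured, so a change in these genes is not by itself a change in BMP signalling. The symbols were matched to Ensembl identifiers through GENCODE 29. All 9 were found among the 60499 gene identifiers of the count table, and all 9 passed the filter on low counts, which kept 22955 genes.

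Bone morphogenetic proteins (BMPs) are secreted ligands that assemble type I and type II receptor kinases, which phosphorylate SMAD1, SMAD5 and SMAD9. These join SMAD4, enter the nucleus and switch on a small set of direct targets, of which the ID genes are the best known. Several targets act back on the pathway, because SMAD6 and SMAD7 block receptors and SMAD complexes and BAMBI is a receptor decoy without a kinase domain. In embryos, BMP activity patterns the mesoderm that forms from the primitive streak and helps to specify the heart field.

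The cells were the established human embryonic stem cell line H1, differentiated toward cardiac cells on recombinant laminins. RNA was sequenced from 44 wells in 12 groups. Pluripotent cells on laminin LN-521 formed 1 group (3 wells). Cells on LN-521 plus LN-221 formed the others, namely 3 wells per day at days 0, 1, 3, 14, 20, 30 and 90, and 5 per day at days 5, 7, 9 and 11. CHIR99021, a GSK3 inhibitor that activates Wnt signalling, was given at day 0, and IWP2, which blocks Wnt secretion, at day 3. Per the growth protocol in the labels, day 0 cells were in Nutristem, day 1 and day 3 cells had CHIR99021 in insulin-free B27 medium, and day 5 cells had IWP2 in it. Day 7 and day 9 cells had the insulin-free medium alone, and cells from day 11 on had CTS B-27 medium. No BMP ligand or BMP inhibitor is named in the protocols, and no group without the inhibitors was sampled, so day, medium and inhibitor cannot be told apart. For day 11 the series text counts 3 wells, but 5 samples carry that label, and none of the 5 was dropped from the comparisons. Every well came from the same line, and p-values here measure the spread between wells. For edgeR that spread was estimated per gene over all 12 groups together, not from the compared wells alone. Wells were less alike in some groups. The chi-square of counts per gene was at most 24.3 between day 1 wells and ran from 151 to 310 between day 20 wells. A p-value for a late step can therefore understate the spread of the wells compared.

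Totals ran from 6937136 to 33498022 estimated counts per library (median 26010763), and RNA integrity scores from 7.4 to 10. The 5 pluripotency markers POU5F1, NANOG, SOX2, DNMT3B and LIN28A summed to a median of 7360 CPM (TMM-scaled read counts relative to library size) in the pluripotent wells and 14.2 CPM at day 90. The cardiomyocyte markers TNNT2, MYH6, MYL7, ACTN2 and NKX2-5 summed to a median of 33.2 CPM in the pluripotent wells and 11610 CPM at day 9. The wells were mixed cultures. The endoderm and liver list FOXA2, SOX17, AFP, TTR and APOA1 reached a median of 1401 CPM at day 9 and 3831 CPM at day 14. In such bulk samples, fewer cells of a type and less RNA per cell cannot be told apart.

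The 5 wells of day 11 fell into separate clusters. Wells 1 and 2 had AFP, a fetal liver and yolk sac protein, at 3890 and 7287 CPM, and wells 5, 6 and 7 at 80.3, 97.0 and 93.0 CPM. TNNT2, the cardiac troponin T gene, was at 1011 and 648 CPM in wells 1 and 2 and at 1639, 1630 and 1645 CPM in wells 5, 6 and 7. RNA integrity scores were 8.6 and 8.0 against 9.5, 9.2 and 9.4. Results that involve day 11 are therefore also given without either set of wells, an analysis added after the data were seen.

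Between day 0 and day 9 all 9 genes rose, and between day 9 and day 90 all 9 fell. A change was called when edgeR's quasi-likelihood test gave a Benjamini-Hochberg adjusted p under 0.05 and the fold change was at least 1 on the log2 scale. Of all genes tested, 17.1% were called higher and 14.6% lower in the first comparison (31.7% in either direction). In the second, 11.9% were called higher and 12% lower (23.9%). The median log2 fold change of the 9 genes was 2.92 from day 0 to day 9, beside 0.08 over all genes. From day 9 to day 90 it was -1.92, beside -0.02 over all genes. In both comparisons the well ranges of all 9 genes were apart. Here and below, the share of all genes whose wells did not overlap is not given, so such counts only describe the 9 genes. These comparisons share the day 9 wells, so the rise and the fall are not independent of each other. On TPM ID1 was not called from day 0 to day 9 (0.61, adjusted p = 0.177 with a pseudocount of 1, limma), which leaves 8 of 9. Markers of other cell types moved over the same comparisons. Of 5 endothelial markers (PECAM1, CDH5, KDR, TEK and VWF), 4 rose and then all 5 fell, and their summed level had a median of 209 CPM at day 0 (202 to 237), 494 CPM at day 9 (306 to 523) and 76.2 CPM at day 90 (42.0 to 195). Of the 5 endoderm and liver markers all rose and then all fell, with medians of 7.77 CPM at day 0 (3.46 to 9.93), 1401 CPM at day 9 (470 to 6097) and 9.25 CPM at day 90 (8.74 to 128). Their part in the changes of the 9 genes was not tested.

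The genes reached their highest mean at different days. MSX1 and MSX2 were highest at day 3. ID1, ID3, ID4, SMAD6 and BAMBI had their highest mean at day 7, and ID2 and SMAD7 at day 9. MSX2 was the 1 gene whose wells in the highest group lay wholly above those of the next highest. For the other 8 these wells overlapped, so the order of their top days was not resolved.

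**Figure D1:**
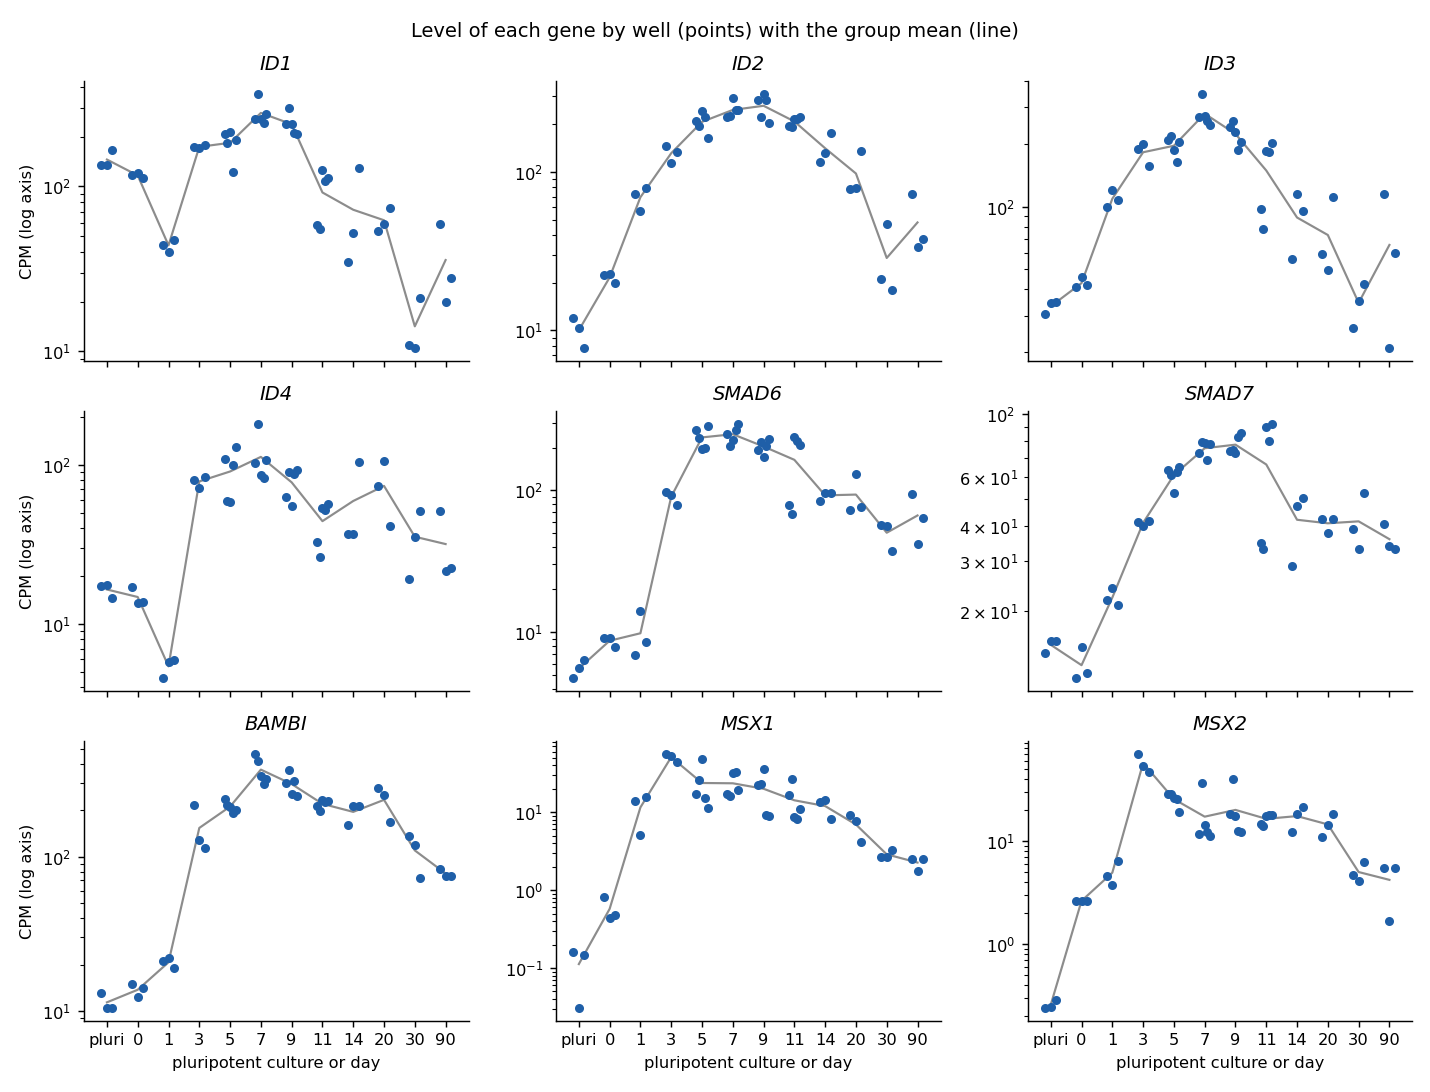
Level of each of the 9 genes in all 44 wells. The x axis gives the group in time order (not to scale), the y axis gives TMM-scaled CPM on a log axis, points are wells and the line joins group means. The plot shows the step between day 1 and day 3, which lifted SMAD6 from a mean of 9.82 to 90.1 CPM, the day 11 split of SMAD6 (68.2 and 78.7 against 210 to 240 CPM) and the low ID1 values at day 30 (10.46 to 21.1 CPM).

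Among the 11 steps between neighbouring groups, the step from day 1 to day 3 called the most of the 9 genes. ID1, ID4, SMAD6, BAMBI, MSX1 and MSX2 rose, which is 6 of 9, where 11% of all genes were called higher and 6.8% lower (17.8% in either direction). The other members, ID2, ID3 and SMAD7, also had every day 3 well above every day 1 well, with log2 fold changes of 0.92, 0.74 and 0.88 that stayed under the fold threshold. From day 0 to day 1 the set split. ID2, ID3 and MSX1 rose (3.86% of all genes called higher), and ID1 and ID4 fell (9.66% called lower). From the pluripotent wells to day 0, ID2 and MSX2 rose (2.73% of all genes called higher, 0.183% lower, 2.91% in either direction). From day 3 to day 5 SMAD6 rose (5.75% called higher) and MSX2 fell (4.34% called lower, 10.1% in either direction).

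From day 5 to day 7, ID1, ID3, SMAD7 and BAMBI had every day 7 well above every day 5 well, and the median log2 fold change of the 9 genes was 0.30, beside -0.01 over all genes. At this step edgeR called 0 of 9 genes (3.65% of all genes called in either direction, 2.74% higher and 0.906% lower), DESeq2 called 0, and 2 genes had an unadjusted p under 0.05. One of them was BAMBI, with a log2 fold change of 0.79 ± 0.16 (SE) and an adjusted p of 0.000957 (edgeR), under the fold threshold. The other was ID1, at 0.60 ± 0.26 with an adjusted p of 0.218 (edgeR). From day 7 to day 9 both tools called 0 of 9 (1.28% of all genes, 1.02% higher and 0.261% lower), and 0 genes had an unadjusted p under 0.05. The same counts held from day 14 to day 20 (0.0479% of all genes). From day 11 to day 14 both tools called 0 of 9 (0.697% of all genes), and 4 genes, ID2, ID3, SMAD6 and SMAD7, had an unadjusted p under 0.05.

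**Figure D2:**
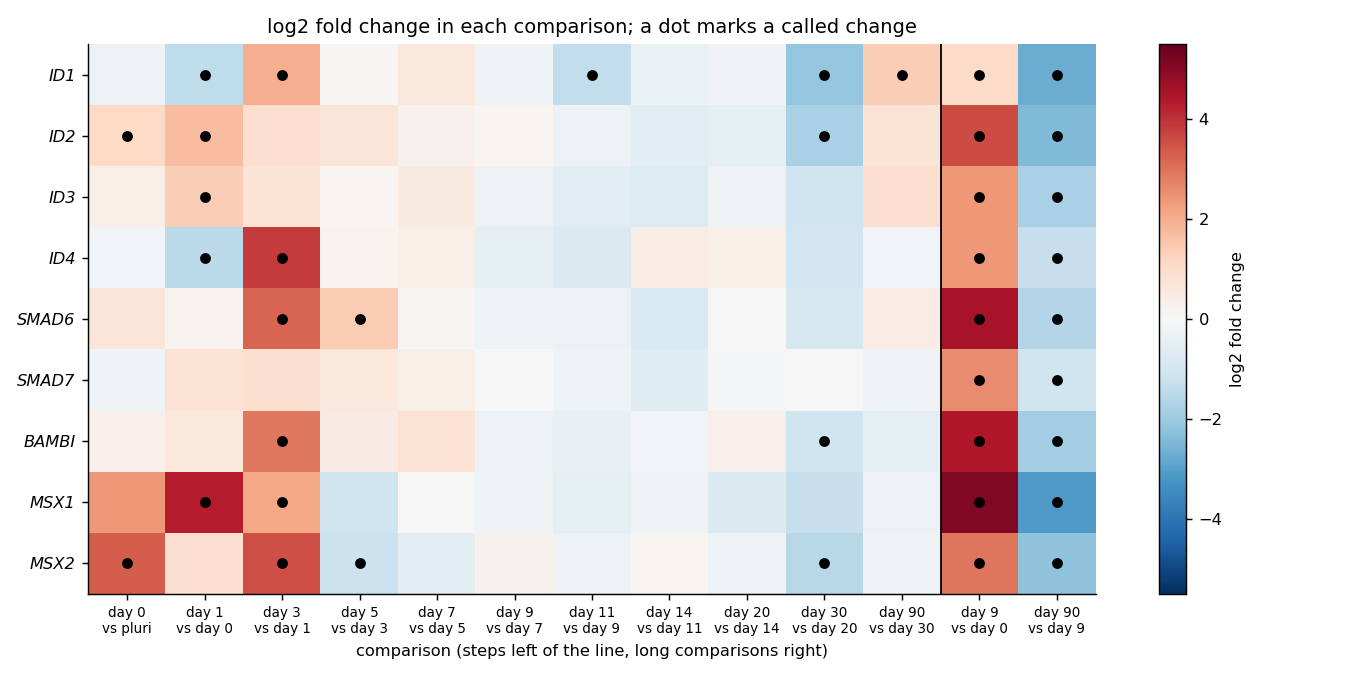
log2 fold change of each gene (rows) in the 13 comparisons (columns; the 11 steps left of the line and the long comparisons right of it), from the edgeR fit. Red is higher and blue is lower in the later group, and a dot marks a called change. The day 3 against day 1 column holds 6 dots, all red, and the day 30 against day 20 column holds 4, all blue.

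The ID genes encode helix-loop-helix proteins that lack a DNA-binding region and hold back differentiation by pairing with E proteins. ID1 (ENSG00000125968, chr20:31605283-31606515, plus strand) was already high in pluripotent cells. Its pluripotent wells had 135, 134 and 167 CPM and its day 0 wells 117, 120 and 112 CPM. At day 1 the wells had 44.3, 40.0 and 47.3 CPM. Every day 1 well lay below every day 0 well, and ID1 fell by 1.41 ± 0.35 (SE) on the log2 scale (adjusted p = 0.00262, edgeR). On TPM with a pseudocount of 1 the change was -1.21 and was not called (adjusted p = 0.0533, limma). At day 3 the wells had 172, 170 and 178 CPM. That is above both the day 1 and the pluripotent wells, and the rise from day 1 was 1.98 ± 0.35 on the log2 scale (adjusted p = 3.24e-05, edgeR).

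ID1 had its highest mean at day 7, with wells at 254, 257, 243, 274 and 364 CPM. From day 9 (207 to 297 CPM) to day 11 (55.1 to 125 CPM) it fell by 1.38 ± 0.27 on the log2 scale (adjusted p = 0.00209, edgeR), the only member called at that step, where 1.24% of all genes were called lower and 0.396% higher (1.63% in either direction). ID1 was also lower with day 11 wells 1 and 2 left out (-1.05, adjusted p = 0.0219, edgeR) and with wells 5, 6 and 7 left out (-2.04, adjusted p = 0.000865, edgeR). It missed the threshold on TPM with a pseudocount of 1 (-1.33, adjusted p = 0.0505, limma). The net rise of ID1 from day 0 to day 9 was 1.03 ± 0.31 on the log2 scale (adjusted p = 0.00638, edgeR), the smallest of the 9. It came to 0.94 without well 10 of day 9, under the fold threshold, and ID1 is the 1 of the 9 genes whose call from day 0 to day 9 was lost in any fit run.

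ID4 (ENSG00000172201, chr6:19837386-19840684, plus strand) dipped at day 1 as ID1 did. It had 17.0, 13.6 and 13.8 CPM at day 0 and 4.58, 5.78 and 5.92 CPM at day 1. It fell by 1.44 ± 0.41 on the log2 scale (adjusted p = 0.00836, edgeR), a call that was lost without well 1 of day 1 (-1.29, adjusted p = 0.052, edgeR) and on TPM (-0.87, adjusted p = 0.344 with a pseudocount of 1, limma). At day 3 it had 79.9, 71.8 and 83.7 CPM. This rise of 3.85 ± 0.44 on the log2 scale (adjusted p = 1.03e-08, edgeR) was the largest of the 9 genes at that step. From day 5 on the ID4 wells spread widely, for example 58.1 to 129 CPM at day 5 and 36.5, 36.7 and 104 CPM at day 14. The long antisense gene AL022068.1 overlaps ID4 and was at most 2.38 TPM in any library.

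ID2 (ENSG00000115738, chr2:8678845-8684453, plus strand) did not dip. Its wells had 11.98, 10.3 and 7.73 CPM in pluripotent cells, 22.3, 22.7 and 19.8 CPM at day 0 and 72.1, 57.0 and 78.8 CPM at day 1. Each of these groups lay wholly above the one before. ID2 rose by 1.11 ± 0.27 on the log2 scale from pluripotent to day 0 (adjusted p = 0.0115, edgeR) and by 1.68 ± 0.27 to day 1 (adjusted p = 1.31e-05, edgeR). The first call was lost in 4 of the 6 fits that left out 1 well, with adjusted p from 0.0502 to 0.0831, and on TPM (1.13, adjusted p = 0.382 with a pseudocount of 1, limma). By day 9 its wells had 286, 312, 286, 204 and 221 CPM, a rise over day 0 of 3.60 ± 0.28 on the log2 scale (adjusted p = 2.77e-13, edgeR). The antisense gene ID2-AS1 overlaps ID2 and was at most 4.29 TPM in any library.

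ID3 (ENSG00000117318, chr1:23557918-23559794, minus strand) had 41.2, 45.8 and 41.8 CPM at day 0 and 99.7, 120 and 108 CPM at day 1. All day 1 wells were higher, and ID3 rose by 1.35 ± 0.35 on the log2 scale (adjusted p = 0.0043, edgeR). At day 9 it had 240, 228, 188, 204 and 257 CPM, 2.38 ± 0.34 above day 0 on the log2 scale (adjusted p = 3.37e-07, edgeR). ID1 and ID4 therefore fell, and ID2 and ID3 rose, over the same step.

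The make-up of the ID family shifted with these changes. TPM values, which are scaled for transcript length, allow genes to be compared within a library. ID1 made up 76.6% ± 2.18 (SD, n = 3) of the summed TPM of the 4 ID genes in pluripotent wells and 63.6% ± 0.222 (n = 3) at day 0. It made up 20.2% ± 0.638 (n = 3) at day 1 and 31.9% ± 3.05 (n = 5) at day 9. The day 9 shares lay wholly below the day 0 shares (exact permutation test, two-sided, p = 0.0357, the smallest this design allows; 0.0536 adjusted over 6 such tests). ID2 went from 4.71% ± 0.756 (n = 3) in pluripotent wells to 35.3% ± 4.60 (n = 5) at day 9 and 46.1% ± 4.64 (n = 5) at day 11. ID4 had the lowest mean share in every group, from 1.00% at day 1 to 15.4% at day 30, where its wells (11.6% to 19.7%) overlapped those of ID1 (11.7% to 20.4%).

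The E proteins TCF3 (E2A), TCF4 (E2-2) and TCF12 (HEB) are the partners that ID proteins bind. From day 0 to day 9, 0 of these 3 genes were called by edgeR or DESeq2, and all 3 had an unadjusted p under 0.05. TCF3 was nearest, at -0.92 ± 0.14 on the log2 scale (263 to 139 CPM; adjusted p = 8.27e-07, edgeR). The ratio of summed ID TPM to summed E-protein TPM was 0.974 ± 0.0686 (SD, n = 3) at day 0 and 1.05 ± 0.0798 (n = 3) at day 1. It was 2.66 ± 0.0787 (n = 3) at day 3 and 6.33 ± 0.645 (n = 5) at day 9. It came down to 1.09 ± 0.294 (n = 3) at day 30, and all 3 wells of that day lay below the lowest day 9 well (0.761 to 1.33 against 5.22). At day 90 it was 2.40 ± 1.08 (n = 3), with all 3 wells (1.49 to 3.59) above those of day 30. From day 9 to day 90, TCF3 and TCF4 fell, by 1.34 ± 0.15 and 1.17 ± 0.20 on the log2 scale (adjusted p = 3.13e-09 and 9.01e-06, edgeR).

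**Figure D3:**
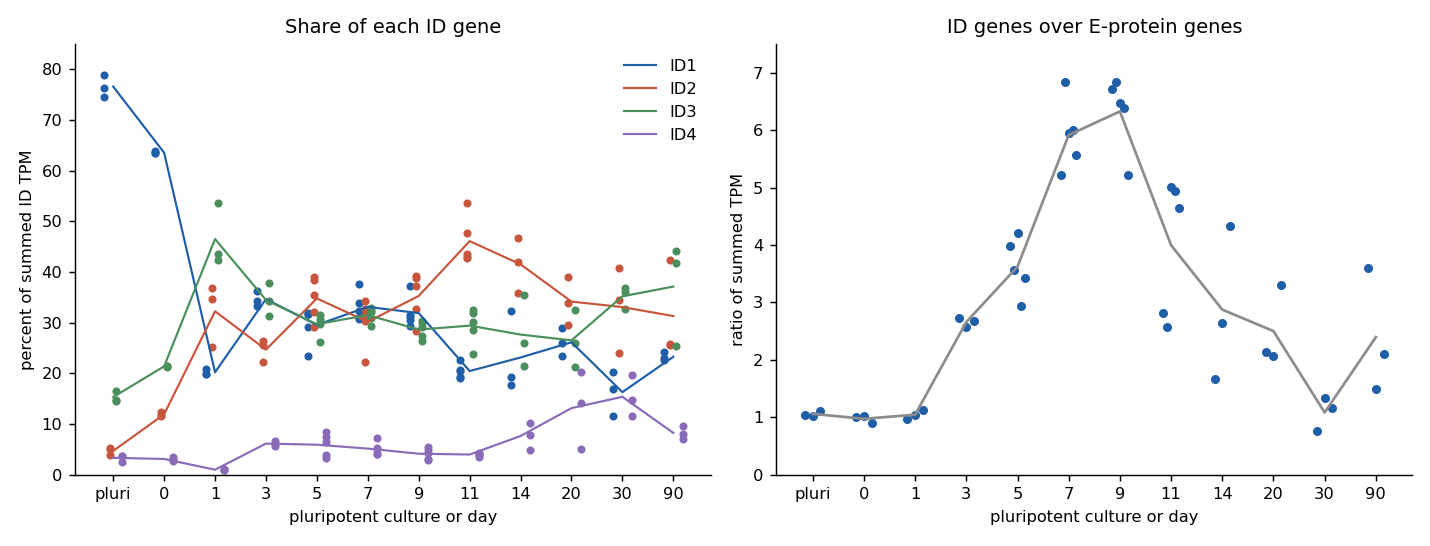
Left, share of each ID gene in the summed TPM of ID1 to ID4 in percent; right, ratio of the summed TPM of the 4 ID genes to that of TCF3, TCF4 and TCF12. The x axis gives the group in time order, points are wells and lines join group means. ID1 drops from 63.6% at day 0 to 20.2% at day 1, and the ratio rises from 0.974 at day 0 to 6.33 at day 9.

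SMAD6, SMAD7 and BAMBI dampen the signal that induces them. SMAD6 (ENSG00000137834, chr15:66702228-66782848, plus strand) is the inhibitory SMAD with preference for BMP receptors. Its wells had 9.16, 9.05 and 7.87 CPM at day 0 and 6.87, 14.0 and 8.56 CPM at day 1, and the groups overlapped. At day 3 they had 98.1, 93.5 and 78.8 CPM, all above the highest day 1 well. SMAD6 rose by 3.20 ± 0.35 on the log2 scale (adjusted p = 4.91e-09, edgeR). It rose again to day 5 (267, 234, 196, 199 and 285 CPM), by 1.39 ± 0.30 (adjusted p = 0.000888, edgeR), where the wells again did not overlap. On TPM this second call was lost, at 0.98 (adjusted p = 0.0525) and 1.02 (adjusted p = 0.0726) with pseudocounts of 1 and 0.1 (limma). The gene AC013564.1 lies in a SMAD6 intron on the same strand and was at most 4.24 TPM.

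BAMBI (ENSG00000095739, chr10:28677342-28682939, plus strand) had 21.0, 22.1 and 19.0 CPM at day 1 and 217, 129 and 114 CPM at day 3. This rise of 2.89 ± 0.22 on the log2 scale (adjusted p = 1.22e-12, edgeR) had the smallest adjusted p of the 9 genes at that step. BAMBI was highest at day 7, with 462, 332, 295, 319 and 418 CPM, and all 5 wells lay above every day 5 well (192 to 236 CPM). At day 20 it still had 280, 251 and 168 CPM.

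SMAD7 (ENSG00000101665, chr18:48919853-48952052, minus strand), which also restrains TGF-beta and activin receptors, changed in smaller steps. It had 11.5, 14.8 and 12.02 CPM at day 0, 21.8, 24.1 and 20.9 CPM at day 1 and 41.3, 40.1 and 41.7 CPM at day 3. It had 52.6 to 64.6 CPM at day 5. Each of these groups lay wholly above the one before, yet none of the 11 steps passed the fold threshold for SMAD7. Its total rise from day 0 to day 9 was 2.61 ± 0.25 on the log2 scale (adjusted p = 3.71e-11, edgeR). Within libraries, SMAD6 made up 29.1% ± 4.52 (SD, n = 3) of the summed TPM of the pair at day 0 and 60.5% ± 2.21 (n = 5) at day 9. The shares did not overlap (exact permutation test, two-sided, p = 0.0357, the smallest this design allows; 0.0536 adjusted over 6 tests).

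The proximal promoters of these 3 brakes, whose group means ran most alike, and of ID1, whose course differed most from theirs, are shown to place the letters that SMAD proteins are known to recognise. The sequences are from RefSeq (GRCh38.p14), the 250 bases before the transcription start, 5′ to 3′ on the gene's strand. These RefSeq starts differ from the gene bounds given above. By those bounds the SMAD7 window lies wholly inside the gene. The ends of the BAMBI, SMAD6 and ID1 windows also reach into their genes, furthest for BAMBI. Both strands of 35116 promoters of this length were searched for GTCTAGAC (a palindrome of 2 SMAD boxes), for GGCGCC (a GC-rich SMAD element) and for CAGAC (the SMAD box), and matches are in capitals. A GTCTAGAC match does not itself hold CAGAC on either strand.
SMAD6 (chr15:66701986-66702235, plus strand): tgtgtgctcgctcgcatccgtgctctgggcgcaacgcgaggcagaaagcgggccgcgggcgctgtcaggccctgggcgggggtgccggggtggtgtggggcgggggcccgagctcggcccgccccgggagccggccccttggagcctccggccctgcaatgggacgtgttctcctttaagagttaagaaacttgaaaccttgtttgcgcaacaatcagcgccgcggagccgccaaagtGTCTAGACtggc
BAMBI (chr10:28677271-28677520, plus strand): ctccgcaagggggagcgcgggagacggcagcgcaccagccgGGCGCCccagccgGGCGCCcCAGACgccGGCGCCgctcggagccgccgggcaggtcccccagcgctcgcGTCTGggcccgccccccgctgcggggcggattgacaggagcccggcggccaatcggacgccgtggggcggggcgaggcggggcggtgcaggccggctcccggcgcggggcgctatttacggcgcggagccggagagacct
SMAD7, the most upstream of 3 starts (chr18:48950966-48951215, minus strand): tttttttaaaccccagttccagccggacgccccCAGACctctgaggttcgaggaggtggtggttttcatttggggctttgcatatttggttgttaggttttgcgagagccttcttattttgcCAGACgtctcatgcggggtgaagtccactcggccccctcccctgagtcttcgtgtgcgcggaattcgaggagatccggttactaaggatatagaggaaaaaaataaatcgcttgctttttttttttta
ID1 (chr20:31605039-31605288, plus strand): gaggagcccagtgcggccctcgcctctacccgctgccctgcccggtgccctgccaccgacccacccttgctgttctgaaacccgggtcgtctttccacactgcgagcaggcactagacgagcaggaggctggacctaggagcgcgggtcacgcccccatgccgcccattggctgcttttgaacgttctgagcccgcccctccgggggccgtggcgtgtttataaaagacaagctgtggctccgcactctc
SMAD6 held GTCTAGAC 12 to 5 bases before its start, a match found in 0.182% of all promoters and in 1 of the 11 promoters of the 9 genes. BAMBI held GGCGCC 3 times, beginning 209, 196 and 181 bases before its start, and CAGAC lay between the last pair of these. That GC-rich element was found in 16.4% of all promoters and, among the 11, in that of BAMBI alone. CAGAC was found in 5 of the 11 (ID3, ID4, BAMBI and 2 of the 3 of SMAD7) and in 38.0% of all promoters. None of the 3 was in this window of ID1, nor in those of ID2, MSX1 and MSX2. Whether matches go with the course of a gene was not tested. A match is a description of the sequence, and binding was not measured.

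MSX1 and MSX2 are homeobox repressors of mesoderm, limb and neural crest and respond to BMP in many embryonic tissues. MSX1 (ENSG00000163132, chr4:4859666-4863936, plus strand) was counted 4, 1 and 4 times in the pluripotent libraries. At day 0 it had 0.805, 0.433 and 0.483 CPM and at day 1 14.0, 5.11 and 15.5 CPM. All day 1 wells were higher, and MSX1 rose by 4.32 ± 0.59 on the log2 scale (adjusted p = 8.35e-07, edgeR). It was highest at day 3, with 56.1, 52.9 and 43.4 CPM, a further rise of 2.14 ± 0.50 (adjusted p = 0.000985, edgeR). From day 5 its wells spread widely, from 11.5 to 48.6 CPM at day 5 and from 8.92 to 36.3 CPM at day 9.

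MSX2 (ENSG00000120149, chr5:174724533-174730893, plus strand) differed already between the pluripotent wells and day 0. It had 0.241, 0.245 and 0.292 CPM in pluripotent wells and 2.65, 2.63 and 2.62 CPM at day 0. The groups did not overlap, and MSX2 rose by 3.32 ± 0.51 on the log2 scale (adjusted p = 7.74e-05, edgeR). The pluripotent level rests on 6, 8 and 8 counts. On TPM with a pseudocount of 1 the change was 0.75 and was not called (adjusted p = 0.594, limma), and with a pseudocount of 0.1 it was 2.12 and was called (adjusted p = 0.00105, limma). At day 3 MSX2 had 70.1, 53.8 and 47.1 CPM, 3.53 ± 0.41 above day 1 on the log2 scale (adjusted p = 1.96e-08, edgeR). It then fell by 1.16 ± 0.33 to day 5 (28.3, 28.6, 26.2, 25.3 and 19.0 CPM; adjusted p = 0.00995, edgeR). That call was lost without well 1 of day 3 (-0.98, adjusted p = 0.0912, edgeR). Among the 9 genes, this peak at day 3 was seen in MSX1 and MSX2. For MSX1 the decrease to day 5 was -1.10 ± 0.42 on the log2 scale and was not called (adjusted p = 0.0628, edgeR), although it was called lower in a fit of the compared groups alone, on TPM with either pseudocount and without well 3 of day 5.

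Other genes of the pathway were read from lists, chosen, like the 9, with earlier results of these data known. Counts of called genes in these lists are to be read beside the shares of all genes called, given above for each comparison. Of 10 BMP ligand genes, 6 rose from day 1 to day 3 (BMP2, BMP4, BMP5, BMP6, BMP10 and GDF7) and 0 fell. The median log2 fold change of this list was 1.76, beside 0.07 over all genes. BMP4 had 9.80, 2.70 and 12.2 CPM at day 1 and 158, 142 and 112 CPM at day 3, a rise of 4.06 ± 0.36 on the log2 scale (adjusted p = 2.56e-11, edgeR). It then fell by 1.04 ± 0.27 to day 5 (46.6 to 81.8 CPM; adjusted p = 0.00625, edgeR), so BMP4, MSX1 and MSX2 each had their highest mean at day 3.

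BMP2 moved a step earlier. It rose from 7.11 ± 0.334 CPM (SD, n = 3) at day 0 to 34.8, 49.4 and 30.0 CPM at day 1, by 2.42 ± 0.47 on the log2 scale (adjusted p = 0.000184, edgeR). It was the one ligand gene of the 10 called at that step, and its wells had 83.1, 105 and 112 CPM at day 3. From day 9 to day 90, BMP2, BMP4, BMP8A and BMP10 fell and BMP5 and BMP7 rose. BMP5 was at 136 CPM on average at day 9 and 475 CPM at day 90, up by 1.80 ± 0.24 on the log2 scale (adjusted p = 1.05e-07, edgeR), while all 9 response genes fell. BMP7 rose by 1.61 ± 0.37 (adjusted p = 0.000645, edgeR), but its day 90 wells had 120, 617 and 135 CPM against 72.9 to 119 CPM at day 9, so well 4 set much of the size.

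**Figure D4:**
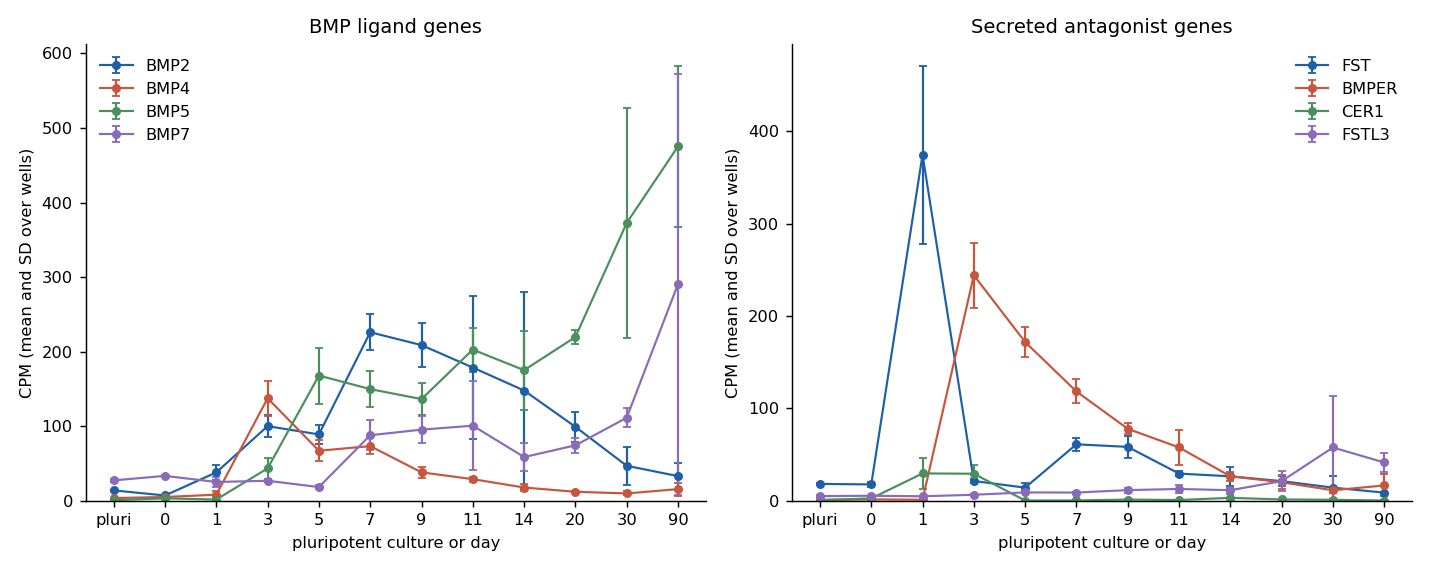
Group means of 4 BMP ligand genes (left) and 4 secreted antagonist genes (right), in TMM-scaled CPM with SD over wells as bars, against the group in time order. CPM are not scaled for length, so curves are to be read along time and not against each other. BMP4 peaks at day 3 (138 CPM), FST at day 1 (375 CPM) and BMPER at day 3 (244 CPM), and BMP5 is highest at day 90 (475 CPM).

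Secreted antagonists trap BMP or related ligands outside the cell. From day 0 to day 1, 2 of the 12 tested antagonist genes rose, FST and CER1, and 1, CHRD, fell. FST, which encodes the activin and BMP trap follistatin, went from 17.7 to 375 CPM on average, up by 4.401 ± 0.49 on the log2 scale (adjusted p = 1.38e-08, edgeR). It fell by 4.13 ± 0.48 to day 3 (21.4 CPM; adjusted p = 1.96e-08, edgeR), the step at which 6 of the 9 response genes rose. BMPER, a BMP-binding modulator, went from 1.12 to 244 CPM over that step, a rise of 7.76 ± 0.44 on the log2 scale (adjusted p = 6.19e-16, edgeR). In all, CHRD, BMPER, TWSG1 and SOSTDC1 rose and CHRDL1 and FST fell, 4 and 2 of 12.

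Of 8 BMP receptor genes, ACVR1 and ACVRL1 fell from day 0 to day 1 and rose from day 1 to day 3, and the other 6 were not called at either step. ACVRL1 was low at both times, at 0.0750 CPM on average at day 1 and 2.09 CPM at day 3. Of the 4 SMAD transducer genes, SMAD9 fell by 1.70 ± 0.36 on the log2 scale at the first of these steps (adjusted p = 0.00053, edgeR). It rose by 4.87 ± 0.38 at the second (adjusted p = 1.2e-12, edgeR), from 1.01 to 29.8 CPM on average. SMAD1 rose by 1.11 ± 0.15 from day 0 to day 1 (adjusted p = 4.18e-07, edgeR), and SMAD4 and SMAD5 were not called at either step. The dip at day 1 and the rise at day 3 that ID1 and ID4 showed was thus also measured for ACVR1, ACVRL1 and SMAD9.

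Of 12 other genes known to respond to BMP, 6 rose from day 1 to day 3 (DLX3, GATA2, GATA3, TBX2, TBX3 and HAND1) and CDX2 fell. From day 0 to day 9, 9 of the 12 rose and 0 fell, where 17.1% of all genes were called higher and 14.6% lower. HAND1, a heart and extraembryonic mesoderm factor, went from 0.573 to 128 CPM on average between day 1 and day 3, by 7.79 ± 0.67 on the log2 scale (adjusted p = 2.03e-11, edgeR). CDX2, a posterior mesoderm and trophectoderm factor, was at 61.2 CPM at day 1 and 9.55 CPM at day 3. TBX3 went from 4.22 to 74.5 CPM, by 4.14 ± 0.34 (adjusted p = 7.28e-12, edgeR). These times also differed in cell identity, as the summed primitive streak markers TBXT, EOMES, MIXL1 and GSC had a median of 869 CPM at day 1 and 161 CPM at day 3. The part of cell identity in the changes of the response genes was not tested.

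Of 10 genes of the TGF-beta and Nodal arm, NODAL and PMEPA1 rose and LEFTY2 fell from day 0 to day 1, and 7 were not called. NODAL, the embryonic ligand of this arm, was at 5.98 CPM on average at day 0, 308 CPM at day 1 and 5.40 CPM at day 3. It rose by 5.68 ± 0.50 and fell by 5.83 ± 0.50 on the log2 scale (adjusted p = 6.74e-11 and 1.69e-11, edgeR). Among negative regulators inside the cell other than SMAD6, SMAD7 and BAMBI, HTRA1 rose from day 1 to day 3 (11.1 to 211 CPM on average). It is a secreted protease placed on this list for its block of TGF-beta family signalling, and it was the one of 8 called at that step.

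At day 11 the wells that were high in AFP and low in TNNT2 were also the low wells for 8 of the 9 response genes, with no overlap on the CPM scale. These sets of wells also differed over genes at large (chi-square of counts per gene, 167 for wells 1 and 5 beside 20.6 for wells 1 and 2). The share of all genes that split this way is not given, so the count only describes the 9 genes. SMAD6 had 78.7 and 68.2 CPM in wells 1 and 2 and 240, 224 and 210 CPM in wells 5, 6 and 7. SMAD7 had 34.7 and 33.1 CPM against 90.4, 80.5 and 92.5 CPM. ID1 had 58.4 and 55.1 CPM against 125, 107 and 113 CPM, ID3 had 96.9 and 77.8 CPM against 186, 182 and 202 CPM, and ID4 had 32.5 and 26.4 CPM against 53.5, 51.9 and 56.8 CPM. ID2, BAMBI and MSX2 lay closer together. ID2 had 194 and 194 CPM against 216, 216 and 224 CPM, BAMBI had 213 and 197 CPM against 233, 224 and 229.9 CPM, and MSX2 had 14.6 and 14.1 CPM against 17.7, 17.9 and 17.9 CPM. MSX1 lay the other way, with 16.7 and 26.6 CPM against 8.59, 8.28 and 10.9 CPM. BMP2 had 80.0 and 68.0 CPM against 244, 237 and 264 CPM, whereas BMP4 had 28.9 and 33.5 CPM against 26.6, 25.2 and 30.8 CPM. These wells share a label, so their difference is described without a test.

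At day 9, wells 1, 2 and 3 had AFP at 1217, 4221 and 917 CPM and SMAD6 at 193, 171 and 205 CPM. Wells 4 and 10 had AFP at 175 and 244 CPM and SMAD6 at 231 and 219 CPM. On CPM, the day 9 wells higher in AFP were thus the lower ones for SMAD6, over a narrower range, and for ID4. ID2 lay the other way, at 286, 312 and 286 CPM in wells 1, 2 and 3 against 204 and 221 CPM. For ID1, ID3, SMAD7, BAMBI, MSX1 and MSX2 these sets of day 9 wells overlapped. On the deposited TPM they overlapped for SMAD6, ID4 and ID2 as well. The day 9 sets were formed after AFP was seen, so they are described without a test. The part of cell make-up or RNA integrity in the day 11 values was not tested. The day 11 split depended on the scale. On the deposited TPM the sets overlapped for ID1, ID3 and ID4, and ID2, BAMBI and MSX2 were higher in wells 1 and 2, BAMBI at 87.0 and 76.7 TPM against 46.1, 50.02 and 45.9 TPM. ID1 was at 47.7 and 42.8 against 50.04, 47.7 and 45.6, in deposited TPM. On TPM recomputed over protein-coding genes ID1 was at 148 and 134 against 260, 233 and 242, all 4 ID genes and MSX2 were lower in wells 1 and 2, and BAMBI overlapped. Protein-coding genes held 32.3% and 31.8% of the TPM in wells 1 and 2 and 19.3%, 20.4% and 18.9% in wells 5, 6 and 7. SMAD6 and SMAD7 were lower in wells 1 and 2 on all 3 scales.

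Steps into and out of day 11 changed with the wells used. With wells 5, 6 and 7 left out, ID1, ID3, ID4, SMAD6 and SMAD7 were called lower at day 11 than at day 9, SMAD6 by -1.44 (adjusted p = 0.000891, edgeR) on the log2 scale. With wells 1 and 2 left out, ID1 alone was called, and SMAD6 was at 0.14 (adjusted p = 0.771, edgeR). At the next step, ID3, SMAD6 and SMAD7 were called lower at day 14 with wells 1 and 2 of day 11 left out, SMAD6 at -1.26 (adjusted p = 0.000547, edgeR). With wells 5, 6 and 7 left out, 0 members were called there. Under these choices 2.99%, 2.72%, 3.17% and 0.00411% of all genes tested were called lower, in the order given.

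**Figure D5:**
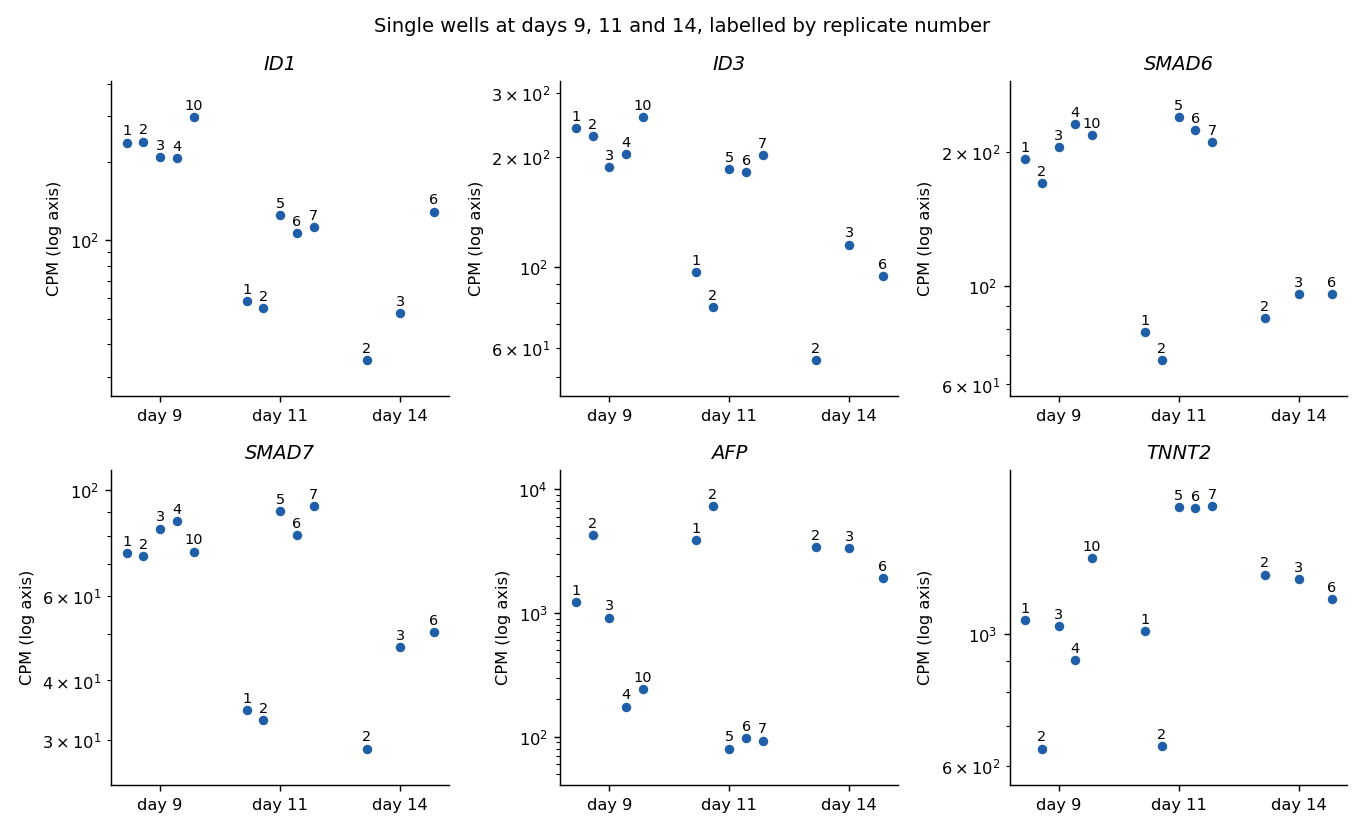
Single wells at days 9, 11 and 14 for ID1, ID3, SMAD6 and SMAD7, with AFP (liver and yolk sac) and TNNT2 (cardiac troponin T), in TMM-scaled CPM on a log axis; numbers are replicate numbers from the labels. Day 11 wells 1 and 2 sit below wells 5, 6 and 7 for SMAD6 (68.2 and 78.7 against 210 to 240 CPM) and above them for AFP (3890 and 7287 against 80.3 to 97.0 CPM).

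From day 20 to day 30, 4 of the 9 genes fell (1.26% of all genes called lower, 0.758% higher, 2.02% in either direction). By another measure, 7 of 9 had every day 30 well below every day 20 well. The percentages of called genes are no background for that count. ID1 had 53.7, 59.4 and 73.7 CPM at day 20 and 10.9, 10.46 and 21.1 CPM at day 30, and it fell by 2.13 ± 0.36 on the log2 scale (adjusted p = 0.000414, edgeR). ID2 had 77.7, 79.2 and 137 CPM and then 21.1, 47.0 and 17.9 CPM, and it fell by 1.78 ± 0.27 (adjusted p = 0.000146, edgeR). BAMBI fell by 1.09 ± 0.21 (adjusted p = 0.00186, edgeR) and MSX2 by 1.53 ± 0.39 (adjusted p = 0.024, edgeR). The endoderm and liver markers were also lower, with a summed level of 921 to 3880 CPM at day 20 and 20.1 to 268 CPM at day 30. FOXA2 was the 1 of these 5 called lower, and their part in the result was not tested. SMAD7 and ID4 were the genes whose wells overlapped, and SMAD7 stood at 0.02 ± 0.24 on the log2 scale.

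BAMBI came under the fold threshold without well 1 of day 20 (-0.86) and without well 3 of day 30 (-0.81), and it was not called on TPM (-1.21, adjusted p = 0.0941 with a pseudocount of 1, limma). MSX2 lost its call without well 2 of day 20 (adjusted p = 0.051), well 3 of day 20 (0.0912), well 1 of day 30 (0.106) or well 10 of day 30 (0.0854, all edgeR). A fit of the 6 day 20 and day 30 wells alone called 0 of the 9, with ID1 at -2.12 (adjusted p = 0.238, edgeR). Well 10 of day 30 had an RNA integrity score of 7.4 and 11715812 counts.

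From day 30 to day 90 ID1 was called higher (2.65% of all genes called higher, 2.44% lower, 5.09% in either direction), with 59.4, 20.0 and 27.8 CPM at day 90. The wells overlapped those of day 30, and the log2 fold change was 1.33 ± 0.35 (adjusted p = 0.0135, edgeR). The call was lost without well 2 of day 90 (0.76, adjusted p = 0.216, edgeR), without well 1 of day 30 (1.19, adjusted p = 0.0634, edgeR) in a fit with lane as a term (1.12, adjusted p = 0.0833, edgeR) and on TPM (0.34 with a pseudocount of 1). Against day 9, ID1 at day 90 was down by 2.73 ± 0.34 on the log2 scale (adjusted p = 4.31e-08, edgeR), whereas SMAD7 was down by 1.12 ± 0.23 (adjusted p = 0.000129, edgeR), the smallest change of the 9. The SMAD7 value was -0.93 in a fit with the RNA integrity score as a term.

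At day 90 most members were still above their day 0 level on average, on the CPM scale. SMAD6 was at 66.5 ± 25.9 CPM (SD, n = 3) against 8.70 ± 0.715 CPM (n = 3), and BAMBI at 77.7 CPM with wells at 83.4, 74.5 and 75.2 CPM against 12.3 to 14.9 CPM. The lowest day 90 wells of SMAD6, BAMBI and SMAD7 were above the highest day 0 wells. On mean CPM, ID1 was the exception, at 20.0 to 59.4 CPM against 112 to 120 CPM at day 0. For ID3 and MSX2 the day 90 wells overlapped those of day 0 on CPM. On TPM their day 90 means were below day 0 too, at 19.9 against 26.1 for ID3 and 0.773 against 0.897 for MSX2. No test was run between these groups.

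The 9 genes differed in how alike their courses were. Pearson's r of the mean log2 CPM over the 12 groups was 0.98 for SMAD6 and BAMBI, 0.96 for SMAD6 and SMAD7, 0.95 for MSX1 and MSX2 and 0.92 for ID2 and ID3. ID1 stood apart, with r from 0.20 (BAMBI) to 0.65 (ID3). These are descriptions of 12 means that share libraries and scaling, without a p.

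Among 7630 other protein-coding genes with at least 10 TPM in some group, the courses most like that of SMAD6 were FKBP7, CD99 and GATA5 (r = 0.98 for all 3). GATA5 encodes a cardiac and endodermal transcription factor. BAMBI was most like BACE1 (0.99), TGFB1 (0.98) and CD99 (0.98), and SMAD7 was most like MARCH6 (0.99). MSX2 was most like GREB1L (0.97) and MSX1 most like ZBTB10 (0.98). ID1 was most like TYRO3 (0.94), ID2 most like RHOU (0.96), ID3 most like RXRA (0.97), a retinoid receptor, and ID4 most like SDC4 (0.98).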

How the data were processed

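RNA from 44 wells was sequenced as stranded total-RNA libraries, per the labels' protocols. The authors deposited expected counts and TPM per gene, as the file headers name them. The submitters' processing notes name cutadapt, STAR 2.5.2b, RSEM 1.2.31 and hg38. The RNA integrity score of each library is per the labels.

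Expected counts were rounded to whole numbers (93.84% were already whole). Genes with low counts were removed, which left 22955 of 60499. All 12 groups were fitted together with TMM scaling in edgeR 4.0.16 (R 4.3.3, limma 3.58.1), with p-values adjusted over all genes by Benjamini-Hochberg. DESeq2 1.42.0 was run as an alternative, as were other filters and scalings, limma on log2(TPM + 1) and log2(TPM + 0.1), terms for lane, RNA integrity and replicate number, fits of the compared groups alone and leaving out each well. Exact permutation tests used scipy 1.17.1. RN7SL1 and RN7SL2 held 21.88% to 54.57% of the TPM of a library, so groups were compared on CPM, and TPM was used for shares within a library.

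The members and lists were chosen with earlier results of these data known. Genes named from a list were the up to 4 with the highest mean TPM in any group and, per comparison, the called gene with the largest change. The 3 genes most like each member were taken by Pearson's r over 12 group means. Any gene named outside this rule was chosen after its values were seen.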

Additional observations from a re-analysis of the deposited data

Results flagged for a closer look

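In 36 groups of 5 wells (9 genes at days 5, 7, 9 and 11), 5 held a well far from the others. For a single group, chance alone gives about 1 in 20. The 9 genes were read in the same wells, so the 36 groups are not independent. The count is therefore a description and not an excess over chance. All 5 were well 10 of day 7 or day 9. At day 7, well 10 had ID1 at 363.9 CPM (the others 242.9 to 273.7), ID3 at 347.9 CPM (247.3 to 272.6), ID4 at 180.5 CPM (82.79 to 107.6) and MSX2 at 36.4 CPM (11.29 to 14.33). At day 9, well 10 had MSX2 at 39.53 CPM (12.14 to 18.27).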

How the results depend on the processing

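Over 39 called changes of the 9 genes, 635 of 674 alternative values kept the call, 39 lost it and 0 reversed. Only changes already called in the main fit were followed, and the alternatives reuse the same wells. The total is therefore no independent support for the calls. On TPM with a pseudocount of 1 or 0.1 the number of genes called was 0 or 1 (2 in the analysis reported above) in the step into day 0, 3 or 3 (5) in the step into day 1, and 0 or 0 (1) in the step into day 11. From day 30 to day 90 it was 2 (1) with a pseudocount of 0.1. TPM moved the median of all genes by -0.705 (log2) in that step, 0.489 from day 11 to day 14, -0.479 between days 9 and 90, -0.344 between days 0 and 9 and -0.3 in the step into day 5, each with a pseudocount of 1. Fits of the compared groups alone, which hold fewer samples, called 0 (4) in the step into day 30 and 0 (1) in the step into day 90, where a lane term gave 0 and an RNA integrity term, added after the data were seen, gave 2. Also added then, leaving out day 11 wells 5, 6 and 7 gave 5 (1) from day 9 to day 11, and leaving out wells 1 and 2 gave 3 (0) from day 11 to day 14. Leaving out 1 well at a time gave 1 to 2 from pluripotent to day 0, 4 to 5 to day 1, 6 to 7 to day 3, 1 to 3 to day 5 (1 without well 1 of day 3) and 0 to 1 to day 7 (MSX2 at -1.03 without well 10 of day 7). It gave 0 to 1 from day 11 to day 14 (SMAD6 without well 1 or well 2 of day 11), 3 from day 20 to day 30, 0 to 2 from day 30 to day 90 (2 without well 10 of day 30 or well 4 of day 90), 8 to 9 between days 0 and 9, and 9 between days 9 and 90. The main fit treated wells as unpaired. Correlations of same-numbered wells ran from -0.119 to 0.608 and were highest between day 14 and day 20 (0.608 for well 2 and 0.558 for well 3). With the replicate number as a block, 2 genes (ID1 and ID4, against 1) were called from day 9 to day 11, and no other count moved by over 1.5 times. Except where stated, the cause of these differences was not tested. Genes with few counts, such as MSX1 in pluripotent wells, are limited by depth.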
